A study of Caenorhabditis elegans with 8 samples.

Results

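The positions at which an endogenous nuclease cut nucleosomal DNA were followed across 38642 nucleosome cores of *Caenorhabditis elegans* oocytes. Each core was placed by its dyad, the midpoint of its DNA, which was called from the ends of DNA released by micrococcal nuclease (MNase). A position counted as a dyad when plus-strand 5′ ends lay 71 to 75 nt to its left and minus-strand 5′ ends 71 to 75 nt to its right, with at least 6 tags in all and at least 2 per strand. A tag is 1 mapped read. Of 119745 positions that met this minimum, the highest were taken first, the leftmost on ties, and only positions more than 146 nt from those already taken were kept. The 38642 cores covered 5.67% of the 100254310 nt of the 6 nuclear chromosomes.

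All oocytes came from fer-1(b232) animals grown at the restrictive temperature, whose sperm are defective, so that the oocytes are ovulated without fertilization and replicate their DNA without dividing. The library under study held DNA of 40 to 90 nt, size-selected from chromatin that the oocytes' own nuclease had fragmented (40-90 nt endo-cleaved DNA). The comparison library held mononucleosome core DNA that MNase had cut out of the chromatin that had stayed long, and its label gives a size of 150 bp. Every library analysed here has the same genotype and cell type. With a single library per condition, the spread between oocyte preparations is unknown and no p-value is given. The dyads were called in 1 fraction of the chromatin and the cuts counted in another, so a cut molecule cannot be traced to the molecule that gave the dyad. The label of the endo-cleaved library gives 40 to 90 bp, whereas the header line of its list gives 30 to 90 nt.

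In a nucleosome core, DNA winds around an octamer of histones, and its sections are numbered by superhelical location, the count of helical turns away from the dyad. The minor groove faces the histones and then the outside once in every turn, so an enzyme that cuts exposed backbone has access mainly to the outward face. Across the minor groove the nearest backbone of the opposite strand lies shifted in the 3′ direction, and cuts on the same face therefore leave short 3′ overhangs. DNA between cores is the linker, the stretch that MNase prefers. MNase trims a core from its ends and cuts little inside, whereas DNases that nick DNA on the histone surface leave a ladder of fragments that differ by 1 turn.

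The endo-cleaved library held 29938690 tags at 23077815 distinct positions and strands, against 7892011 tags at 6852300 in the MNase library. Within 73 nt of the dyads lay 902332 plus-strand and 902254 minus-strand endo-cleaved ends, or 46.7 per core. The MNase library had 440836 plus-strand and 406164 minus-strand ends there, or 21.9 per core. Intervals given below are 95% intervals. Those of counts and shares cover counting error only, and PCR copies are not independent molecules. Those of fitted values rest on the scatter about the fitted curve.

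The dyad calls varied in strength. The median core had 7 MNase tags at the distances used for calling, with quartiles of 6 and 8 and a maximum of 69. With each MNase position counted once, 3399 cores were called instead of 38642. Most calls thus met the minimum only through repeated tags at the same position, which may be PCR copies or separate molecules. Just inside the threshold lay 15830 cores with 6 tags, 41% of all, and just outside it 98017 positions with 5 tags and at least 2 per strand. The 98017 positions were counted without the spacing rule and may lie beside called cores, so they are not a number of further cores. Cores were called on every nuclear chromosome, from 287 per Mb on chromosome III to 485 per Mb on chromosome V. Another core lay within 180 nt for 3782 of them, and the median distance to the nearest was 590 nt. MNase ends 71 to 75 nt from the dyad are what chose the cores and are no result. On plus strands they were most frequent 71 nt from the dyad, with 38544 tags, and on minus strands 75 nt from it, with 50663 tags, and the rule itself takes the leftmost position on ties.

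Endo-cleaved ends rose and fell once per helical turn through the whole core on both strands. The fitted period from 70 nt before to 70 nt after the dyad was 10.2 nt (10.16 to 10.24), and the amplitude was 17.5% of the mean (16 to 19). In the MNase library the amplitude was 3.69% (1.93 to 5.45) with a period of 10.21 nt (10.01 to 10.41). The interval of the endo-cleaved amplitude thus lay wholly above that of the MNase library. Over the 6 chromosomes taken 1 at a time the amplitude ran from 16.4% on chromosome I to 18.3% on chromosome IV in endo-cleaved DNA, and from 3.0 to 4.36% in MNase DNA. The endo-cleaved period stayed between 10.18 and 10.21 nt. The phases of the libraries also differed, with the fitted crest 1.97 nt after the dyad along the strand in endo-cleaved ends and 2.51 nt before it (fitted phase -2.51 nt) in MNase ends.

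**Figure D1:**
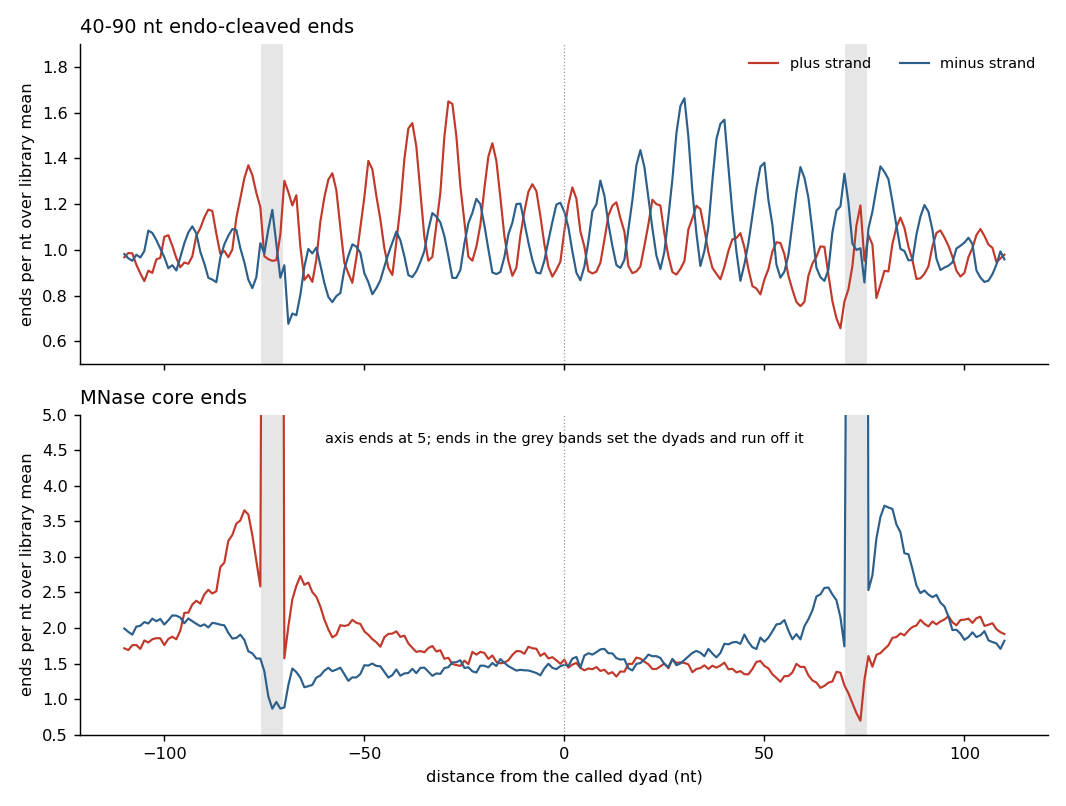
5′ ends per nt over the library mean (vertical axis) by distance from the called dyad in nt (horizontal axis), on the plus and minus strands, for the 40-90 nt endo-cleaved library (top) and the MNase library (bottom, axis cut at 5). Grey bands mark the distances used to call dyads. Endo-cleaved ends crest on each strand at a spacing of 9 to 12 nt. The MNase ends inside the core have weaker crests at irregular spacings of 8 to 24 nt.

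Crests could be counted directly. With a crest defined as the highest position within 4 nt on both sides, the endo-cleaved ends had 15 crests on each strand, 9 to 12 nt apart, with a mean spacing of 10.25 nt. The MNase ends had 13 crests on the plus and 12 on the minus strand, at irregular spacings of 8 to 24 nt. The ranges differed, as the endo-cleaved count includes crests at 74 nt on plus and -73 nt on minus strands. The MNase count leaves out the distances used for calling. Around the dyad the plus-strand crests of endo-cleaved ends lay at -29, -18, -8, 2, 13, 22 and 33 nt. The minus-strand crests lay at -33, -22, -11, -1, 9, 19 and 30 nt. The highest crest of the plus strand was at -29 nt, at 1.65 times the library mean, and that of the minus strand at 30 nt, at 1.66 times. The strands were close to mirror images. For 11 of the 15 plus-strand crests a minus-strand crest lay at the mirrored position within 1 nt, and the fitted phases placed the centre of the mirror 0.432 nt to the right of the called dyad.

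Every plus-strand crest lay to the right of its minus-strand neighbour. The offset was 3 nt at 6 of the 15 pairs of crests, 4 nt at 8 and 5 nt at 1. From the fitted phases it was 3.93 nt (3.72 to 4.13), with 3.82 to 3.97 nt over the chromosomes. The correlation of the strand profiles was highest at a lag of 4 nt. A 5′ end is the base after the bond that was cut, on either strand, so the bonds themselves were 2.93 nt apart (2.72 to 3.13) in the 3′ direction. A double-strand cut with this stagger leaves a 3′ overhang, which the blunting of the fragments before linker ligation removes while it keeps the 5′ ends. In the MNase ends the offset was 4.99 nt (3.85 to 6.12), an interval that overlaps that of the endo-cleaved ends. An offset is known only up to whole turns, however, and one near the middle of a turn can take either sign. It came out negative on III and IV, with -4.002 nt on III and -4.949 nt on IV, and positive on the others, with 4.916 nt on V. The values on IV and V differ little once a whole turn is added to the negative one. The direction of the MNase offset was thus not determined, and the overlap does not show a shared stagger.

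Cuts were counted for each helical turn. The core from -73 to 73 nt was divided into 14 turns of equal length, numbered along each strand from its 5′ side, so that turns 1 to 7 come before the dyad and turns 8 to 14 after it. In turn 1, where DNA enters the core, endo-cleaved ends had a density of 1.07 times the library mean on plus strands (61954 ends) and 1.07 times on minus strands (61527 ends). In turn 2 they had 1.08 on plus and 1.09 on minus strands, and in turn 3 they had 1.12 and 1.13. The density climbed over these turns towards the part of the core about 3 turns from the dyad. Turn 4 had 1.23 on plus strands (77898 ends) and 1.25 on minus strands (79530 ends). Turn 5, from -31 to -22 nt, had 1.29 on plus strands (74239 ends) and 1.27 on minus strands (73413 ends). Turn 5 was the highest of the 14 on both strands, at 1.28 (1.27 to 1.29) with the strands pooled.

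Over the dyad the density was lower. It was 1.16 on plus and 1.15 on minus strands in turn 6, and 1.08 and 1.07 in turn 7. Turn 8, which begins at the dyad itself, had 1.05 on both strands, with 66771 plus-strand and 66869 minus-strand ends. Past the dyad the decline was slow through turn 11 and steeper after it. Turns 9 and 10 had 1.04 and 1.05 with the strands pooled, and turn 11 had 1.01. Turns 12, 13 and 14 had 0.938, 0.888 and 0.887. The exit turns 12 to 14 were the only turns below the library mean. Strands differed by at most 2.08% in a turn, and the counting interval of a strand's value was at most 0.867% to either side.

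In the MNase library turn 1 includes the ends that chose the cores and stood at 7.53 times the mean on plus and 5.75 on minus strands. From turn 2 to turn 5 its ends declined along the strand, with 2.12 on plus and 2.06 on minus strands in turn 2 and 1.56 and 1.54 in turn 5. They were somewhat denser again just before the dyad, with 1.63 and 1.60 in turn 7, against 1.45 and 1.42 in turn 8. Turn 14 had 1.17 and 1.13. The mean of every turn was above the library mean, although single positions near the exit were not, such as 0.805 on plus strands at 73 nt. The cores were chosen where MNase tags are dense, and at 150 to 300 nt from the dyads it was still 1.48 times the mean, against 1.01 times for endo-cleaved ends.

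**Figure D2:**
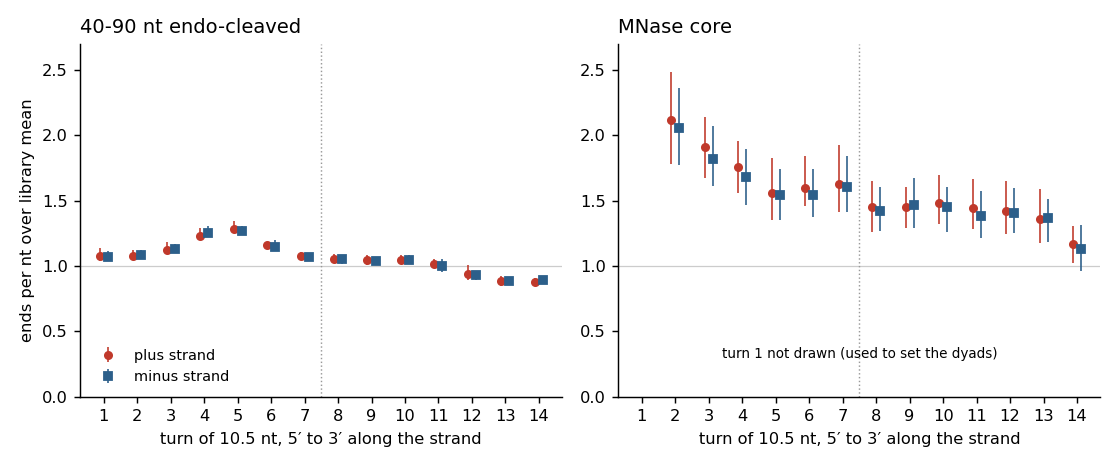
5′ ends per nt over the library mean for each of 14 turns counted 5′ to 3′ along each strand, in the 40-90 nt endo-cleaved library (left) and the MNase library (right, turn 1 left out). Points are all 6 chromosomes together and bars run from the lowest to the highest chromosome; the dotted line is the dyad. Endo-cleaved ends peak in turn 5 at 1.28 and fall to 0.887 in turn 14, while MNase ends fall to 1.55 in turn 5, stand at 1.61 in turn 7 and fall to 1.15 in turn 14.

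The contrast between crest and trough also changed along the core. Within turn 5 the highest position of the endo-cleaved ends had 1.74 times the density of the lowest, and within turn 12 it had 1.30 times, the extremes of the 14 turns with the strands pooled. In turns 2 to 13 of the MNase library this ratio lay between 1.07 and 1.32. Fitted over stretches at 1 period, the endo-cleaved amplitude was 20.7% (19.5 to 22) in the entry turns 1 to 3 and 26.2% (24.1 to 28.3) in turns 4 and 5. It was 16.9% (15.4 to 18.4) in the dyad turns 6 to 9, 14.2% (13.0 to 15.4) in turns 10 and 11, and 14.3% (12.7 to 15.9) in the exit turns 12 to 14. The turns with most cuts thus also had the largest share of them on 1 face of the helix. The corresponding MNase amplitudes were 9.24% in the entry turns, next to the ends that chose the cores, 4.64% in turns 4 and 5, and 1.69% (-0.505 to 3.89) at the dyad, an interval that includes 0. They were 3.57% in turns 10 and 11 and 6.67% in the exit turns.

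Entry and exit were set against the dyad as the 3 outer turns of each side and the 4 turns around the dyad. The outer turns held 40.2% of the endo-cleaved core ends (40.1 to 40.3), and the dyad turns held 29.1% (29.0 to 29.1). Per nt the outer turns had 0.922 times the density of the dyad turns (0.918 to 0.925), with 0.913 to 0.93 over the chromosomes. In the library under study, ends were therefore not concentrated in the outer turns. This holds for its size class only, as the outer turns were the denser ones in the longer single-end endo-cleaved libraries described below. In the library under study the 2 sides of the core differed, as the entry turns had 1.01 times the dyad density and the exit turns 0.836 times. Turns 4 and 5 had 1.16 times. In the MNase library the outer turns had 1.57 times the dyad density, a value that contains the ends used to call the cores. Without positions beyond 70 nt the ratio was 0.920 in endo-cleaved DNA and 1.12 in MNase DNA. The MNase value still holds positions next to the distances that chose the cores.

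The side of the dyad at which a strand begins had more ends in both libraries. From 1 to 70 nt on each side, 54.1% of endo-cleaved ends (54.0 to 54.2) lay before the dyad along their strand. The MNase library had 56.2% of its ends there (56.1 to 56.3). The rule chose cores with MNase ends before the dyad along each strand, and the range counted adjoins those distances. Plus-strand MNase ends had 2.73 times the library mean at -66 nt and 1.23 times at 66 nt. The part of the choice of cores in the MNase share was not tested. A 5′ end before the dyad belongs to a fragment that runs towards the dyad, and one after the dyad to a fragment that runs out of the core.

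In the endo-cleaved library under study, ends were about as dense in the linker as in the core. In the 30 nt that begin 76 nt from the dyad on either side, endo-cleaved ends had 0.961 times the density of the core from -70 to 70 nt (0.958 to 0.963), and 0.949 to 0.967 over the chromosomes. This stretch was taken as linker by its distance alone, and a neighbouring core that was not called may begin within it. Before the core along the strand the ratio was 0.998, and after it 0.923. In the MNase library the linker had 1.42 times the core density (1.41 to 1.42), with 1.60 before the core and 1.24 after it. The linker was thus the denser region in MNase DNA and the slightly less dense one in this size class of endo-cleaved DNA. In the longer single-end endo-cleaved libraries, described below, the linker was the denser region. The ratio therefore depends on fragment size and is no measure of how often the nuclease cut linker DNA. The helical pattern of endo-cleaved ends ran on into the linker. Its amplitude was 10.6% (8.77 to 12.3) before and 10.9% (9.38 to 12.3) after the core, with the crest at a phase of 1.89 and 1.94 nt, against 1.84 to 2.20 nt in the stretches of the core. Plus-strand crests in the linker lay at -99, -89 and -79 nt and at 84, 94 and 104 nt.

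Within a few nt of the core edge the endo-cleaved series was less regular. Plus-strand ends had 0.657 times the library mean at 69 nt, the lowest value within 110 nt of the dyad on that strand, and 1.19 times at 74 nt. On the minus strand the mirrored values were 0.677 at -69 nt and 1.18 at -73 nt. These positions adjoin the MNase ends that chose the cores, and the part of that choice in the pattern was not tested.

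Further from the core the pattern faded. In windows of about 50 nt fitted at the period of 10.2 nt, the endo-cleaved amplitude was 8.0% (7.5 to 8.5) centred 150 nt before the dyad along the strand and 1.92% (0.575 to 3.27) centred 150 nt after it. Before the dyad it was 2.07% at 200 nt and 0.913% at 300 nt. After the dyad the values there were 0.887% and 0.44%. From 100 nt before to 100 nt after the dyad the crest kept a phase of 1.87 to 2.08 nt. At 200 nt before it the phase was 3.97 nt and at 200 nt after it 0.658 nt, against 1.88 nt at the dyad itself. In MNase DNA the amplitude was 2.08% (0.955 to 3.20) at 150 nt before and 1.08% (0.342 to 1.83) at 150 nt after the dyad.

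**Figure D3:**
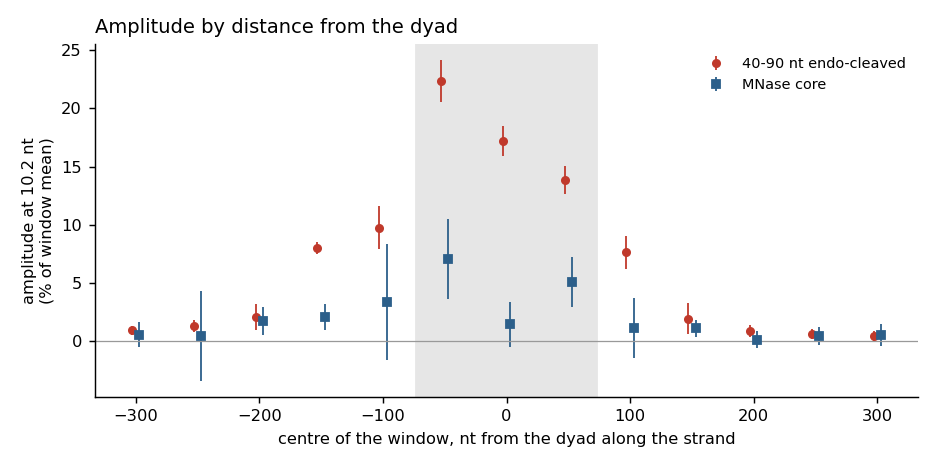
Amplitude at a period of 10.2 nt, in % of the window mean (vertical axis), by the centre of the window in nt from the dyad along the strand (horizontal axis), for the 40-90 nt endo-cleaved and the MNase library. Bars are 95% intervals from the scatter about the fit and the grey band is the core; the endo-cleaved amplitude is 22.3% at 50 nt before the dyad and 0.913% at 300 nt before it.

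Paired-end libraries of endo-cleaved DNA gave both ends of the same fragment. The 20-80 nt library held 6097218 fragments, of which 264655 lay wholly inside a called core, and the 50-130 nt library held 7963474, of which 287279 did. Fragments of 55 to 64 nt, close to the ladder step around 60 nt, were most frequent where they were centred on the dyad. Their number rose to 2.00 times the mean at 200 to 300 nt in the 20-80 nt library, at 1 nt before the dyad, and to 2.01 times in the 50-130 nt library, at the dyad. At 5 nt before the dyad it was 1.00 times in the 20-80 nt library (659 fragments), and at 10 nt before it 1.65 times (1086 fragments). The centres thus moved in whole turns, with a fitted period of 10.18 nt and an amplitude of 20.1% (17.8 to 22.3) in the 20-80 nt library. In the 50-130 nt library the period was 10.19 nt and the amplitude 19.5% (17.2 to 21.7).

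The pairs of cuts behind this maximum were read from fragments that began within 2 nt of a plus-strand crest and ended within 2 nt of a minus-strand crest. Among 78 such pairs at least 25 nt apart, the most frequent in both libraries began at -29 nt and ended at 30 nt, a length of 60 nt, with the highest crest of each strand at its ends. It had 4204 fragments (4078 to 4333) in the 20-80 nt library and 4327 (4199 to 4458) in the 50-130 nt library. The same square moved by 5 nt, to the opposite face, had 2418 and 2426 fragments. Fragments of like length moved by 1 turn were fewer. From -38 to 19 nt there were 3675 in the 20-80 nt library and 3792 in the 50-130 nt library, and from -18 to 40 nt 3642 and 3850. At the edge, from -70 to -11 nt, there were 2583 and 2773. The central 60 nt, from the third turn on 1 side of the dyad to the third turn on the other, was therefore the stretch of this length that was released most often inside a core.

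**Figure D4:**
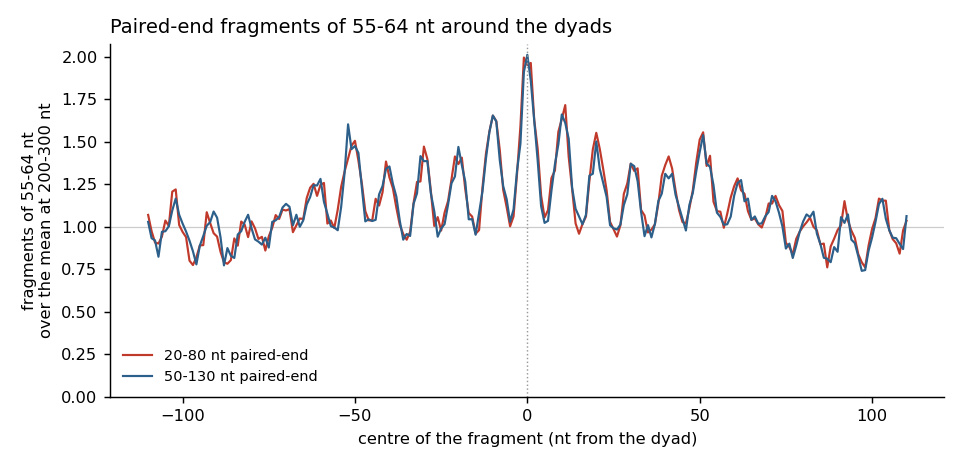
Number of paired-end fragments of 55 to 64 nt over their mean at 200 to 300 nt from the dyads (vertical axis) by the centre of the fragment in nt from the dyad (horizontal axis), in the 20-80 nt and 50-130 nt endo-cleaved libraries. Both curves peak at the dyad, at 2.00 and 2.01, with further crests at about 1 turn from each other.

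Midpoints of all paired fragments of 40 to 90 nt showed the same preference. Within 10 nt of the dyad they had 1.38 times the library mean (1.37 to 1.39) in the 20-80 nt library and 1.37 times (1.36 to 1.38) in the 50-130 nt library. The fall from there was not steady. At 21 to 40 nt they had 1.152 and 1.158 times, and at 41 to 60 nt 1.198 and 1.165 times. At 81 to 100 nt, over the linker, they had 0.923 and 0.917 times. At 200 to 300 nt they had 0.977 and 0.976 times, so short fragments were centred on called cores more often than on the linker or further out.

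At the same dyads the ends of longer endo-cleaved DNA lay further out. The highest turn was turn 5 in the 20-80 nt library (1.38 times its mean), the 40-90 nt library (1.28) and the 50-130 nt library (1.41). It was turn 1 in the 80-230 nt library (1.51), the 90-140 nt library (1.57), the 130-430 nt library (1.78) and the 140-240 nt library (1.56). In the upstream linker the 130-430 nt library had 1.77 and the 140-240 nt library 1.66 times its mean. In the 140-240 nt library the upstream linker was thus denser than any turn of the core. The downstream linker of that library had 1.40 times its mean, below turn 1. The outer turns had 0.922 times the dyad density in the 40-90 nt, 1.08 times in the 90-140 nt and 1.17 times in the 140-240 nt library. The linker had 0.961, 1.07 and 1.30 times the core density in these 3 libraries. The helical pattern was present in each of the 7 endo-cleaved libraries, with periods of 10.18 to 10.24 nt. Its amplitude was lower in longer DNA, at 17.5% (16 to 19) in the 40-90 nt, 12.9% (11.5 to 14.2) in the 90-140 nt and 8.98% (8.10 to 9.86) in the 140-240 nt library. Strand offsets of the libraries lay between 3.06 and 4.27 nt.

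**Figure D5:**
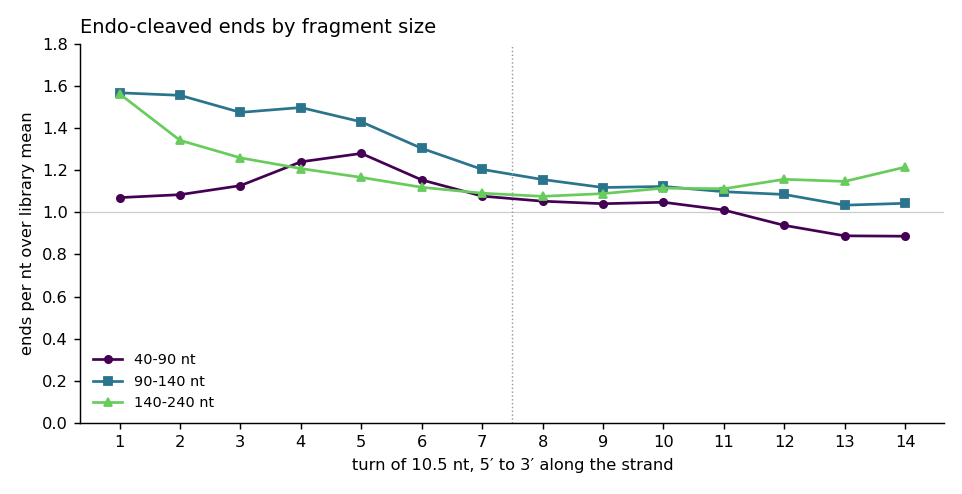
5′ ends per nt over the library mean by turn along the strand, strands pooled, in the single-end endo-cleaved libraries of 40-90, 90-140 and 140-240 nt DNA. The highest turn is turn 5 at 40-90 nt (1.28) and turn 1 at 90-140 nt (1.57) and 140-240 nt (1.56).

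Single cores varied widely around these means. A core had a median of 44 endo-cleaved ends within 70 nt of the dyad, with quartiles of 37 and 52, and none had 0. Of the 38642 cores 38163 had at least 20, enough to give each a share of ends on the outward face, taken as positions within 2 nt of the crests found on the other 5 chromosomes. These positions make up 48.2% of a core. The median share was 55.1% in endo-cleaved DNA, with quartiles of 41.9 and 66.7%, and 24373 cores (63.9%) lay above 48.2%. In MNase DNA the median was 46.9% over the 14374 cores with at least 20 ends, and 6472 of them (45.0%) lay above. The remaining cores lay at or below it. Misplaced dyads and cores with another register cannot be told apart in these shares.

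The endo-cleaved amplitude was largest in the class of cores with most MNase tags, while its intervals overlapped among the other classes. It was 16.5% (15.1 to 17.9) over the 25362 cores with 6 or 7 tags, 19.2% (17.4 to 21) over 8708 with 8 or 9, 19.3% (17.2 to 21.4) over 4121 with 10 to 14, and 26.6% (22.3 to 30.9) over 451 with 15 or more. Median ends per core were 44, 44, 43 and 43, and the highest core of each class held 170, 161, 751 and 801. In the class with 15 or more tags the outer turns had 1.04 times the dyad density, against 0.915 to 0.922 in the other classes. That value rested on 10 crowded cores. Without cores over 5 times the median of ends per core it was 0.919 (0.889 to 0.951) over the remaining 441, and the amplitude was 28.5% (24.9 to 32.1).

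On each chromosome 1 core is named, that with most distinct MNase positions at the calling distances, in the coordinates of the lists, whose genome build is not given in the sources used here. Face shares are of the ends within 70 nt of the dyad. The core on chromosome I spans 1913636 to 1913782 with its dyad at 1913709, and 28 plus-strand and 16 minus-strand endo-cleaved ends against 19 MNase tags at the calling distances. Of its ends, 61.4% (45.5 to 75.6) lay on the shared outward face. The core on chromosome IV, with its dyad at 5450471, had 36 plus-strand and 23 minus-strand ends, and 34 of the 58 within 70 nt, or 58.6% (44.9 to 71.4), were on that face. The core on chromosome X, with its dyad at 9283, had 23 and 25 ends, none of them at positions 0 to 38 nt. Of the 44 within 70 nt, 24 were on that face, or 54.5% (38.8 to 69.6), a share that does not rest on the whole core. These 3 were above the 48.2% of positions, with intervals that include it. The core on chromosome II, with its dyad at 3726326, had 30 and 22 ends and 46.2% (32.2 to 60.5). The core on chromosome V, with its dyad at 13703134, had 26 and 21 ends and 44.7% (30.2 to 59.9). The core on chromosome III, with its dyad at 10047328, had 19 and 21 ends and 32.5% (18.6 to 49.1). At this depth none of these 6 named cores can be told from one with no preferred face, since each of the 6 intervals includes 48.2%.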

How the data were processed

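Fragments were blunted with T4 DNA polymerase, ligated to linkers, amplified and sequenced. The authors deposited, for each mapped position and strand or each paired fragment, a whole-number count of tags that is not normalized; the submitters' processing notes name Bowtie 0.12.7, and single-end entries hold 25 mapped nt. The rule for unique matches of single-end reads and the build are not given in the sources used here. Each tag was placed at its 5′ end. Density is ends per nt over the mean of the library per strand. Period, amplitude and phase came from a weighted least-squares sinusoid of 9.5 to 11.0 nt over a quadratic baseline, from -70 to 70 nt (linear in shorter stretches), with minus strands mirrored where strands were pooled. Poisson and binomial intervals are exact. The scripts were tested on simulated data with known period, amplitude and offset. Depth was 29938690 endo-cleaved and 7892011 MNase tags.

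The members and lists were chosen with earlier results of these data known. The windows out to 300 nt, the crossing of fragment starts with fragment ends and the fragments of 55 to 64 nt were chosen after seeing the data. On each chromosome the named core had most distinct MNase positions among the 10 that the rule counts, with ties going to more tags and then the leftmost, outside windows of 1 kb over 5 times the median of either library. Sequence around the dyads was not analysed here. Profiles and fits were made with NumPy 2.4.6, Numba 0.67.0 and SciPy 1.17.1 under Python 3.11.15, and tables and plots with pandas 2.3.3 and Matplotlib 3.10.9.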

Additional observations from a re-analysis of the deposited data

How the results depend on the processing

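Of 57 recomputed values, 39 moved by less than their interval or, for the number of cores, by under 1.5 times, 18 moved by more, and none reversed. The 9 recomputed strand offsets and the 6 MNase amplitudes were among the 39. Counting each MNase position once in calling cores gave 3399 cores, an amplitude of 19.28%, an outer-to-dyad density ratio of 0.958 and a linker-to-core ratio of 0.9717. Requiring at least 10 MNase tags gave 4572 cores, 20.17%, 0.9329 and 0.9392 for the same measures. MNase ends at 72 to 74 nt gave 16896 cores, an amplitude of 22.71% and a linker ratio of 0.9539. Counting each endo-cleaved position once gave an amplitude of 15.51%, an outer ratio of 0.9365 and a linker ratio of 0.9815. Thinning the endo-cleaved library to the MNase total gave a linker ratio of 0.9577, and a linker of 76 to 91 nt gave 0.9899. Crests minus troughs over their sum gave an amplitude of 19.32%, and the mean distance between crests gave a period of 10.25 nt. Every outer and linker ratio of the endo-cleaved library stayed below 1 under these alternatives. Leaving out cores with another within 180 nt, an alternative chosen after seeing the data, kept 34860 cores and moved no other value beyond its interval. Leaving out 14 crowded cores, over 5 times the median of ends per core, was also chosen after seeing the data and gave an amplitude of 17.5% and an outer ratio of 0.919. No paired analysis was possible because each condition has 1 library and the labels give no shared replicate numbers, and no library could be left out in turn. Depth limits single cores, whose median of 44 ends gives wide intervals, and not the pooled profiles.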
